A study of Mus musculus with 4 samples.

Results

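The dual-specificity MAPK phosphatases of 4T1Ch9 tumors were read on 18 probe sets, which stand for 10 Dusp genes (Dusp1, Dusp2, Dusp4, Dusp6, Dusp7, Dusp8, Dusp9, Dusp10, Dusp14 and Dusp16). They are all the probe sets, of 45141 on the array, whose only symbol in the platform annotation is that of a listed gene. For Dusp7, Dusp8, Dusp9, Dusp10 and Dusp16, which have more than 1 probe set, the brightest by its mean over all arrays stood for the gene and the others are given beside it. Such a choice was made for each of the 17097 genes with a symbol of their own.

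Total RNA came from whole tumors of 4T1Ch9, a cherry-tagged triple negative breast cancer (TNBC) line of Balb/c origin. Female wild-type Balb/c mice that were 6 to 8 weeks old had received 50000 of these cells in a mammary fat pad, and tumors grew for 10 days before treatment. Mice were then given trametinib (MEKi), an inhibitor of the kinases MEK1 and MEK2, at 1 mg/kg by daily oral gavage, or its PEG and Solutol vehicle, for 7 days. Each treatment was read on 2 Affymetrix MG-430PM arrays, called MEKi 1, MEKi 2, vehicle 1 and vehicle 2 after their labels. Whether the 2 arrays of a treatment come from different mice is not stated, and p-values therefore reflect the spread among arrays alone, which may be technical.

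MAP kinases are switched on when a MAP kinase kinase adds phosphate to a threonine and a tyrosine of their activation loop, and the dual-specificity phosphatases switch them off by removing both. Dusp1, Dusp2 and Dusp4 encode inducible nuclear enzymes, Dusp6, Dusp7 and Dusp9 cytoplasmic enzymes that prefer ERK, and Dusp8, Dusp10 and Dusp16 enzymes that prefer JNK and p38. Dusp14 encodes a small enzyme without the docking domain of the others. Dusp4 and Dusp6 are transcribed in response to ERK activity itself, so that their transcripts are widely used as a readout of the pathway that MEKi blocks.

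The start regions of 4 members (Dusp1, Dusp2, Dusp6 and Dusp10) are printed, because only their matched RefSeq windows end at the annotated gene start. Each is the 200 bases upstream of the gene start in the RefSeq annotation of GRCm38.p6, written 5′ to 3′ on the strand of the gene. Dusp1 lies at chr17:26508473-26508672 on the minus strand, and the other 3 on the plus strand, Dusp2 at chr2:127335959-127336158, Dusp6 at chr10:99263031-99263230 and Dusp10 at chr1:184034181-184034380. Capitals mark a cyclic AMP response element (TGACGTCA), its half-site (TGACG) or an E-box (CACGTG).
Dusp1: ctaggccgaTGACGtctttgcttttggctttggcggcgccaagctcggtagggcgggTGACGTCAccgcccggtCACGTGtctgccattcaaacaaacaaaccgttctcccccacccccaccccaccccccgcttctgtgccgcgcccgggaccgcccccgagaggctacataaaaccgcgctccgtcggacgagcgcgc
Dusp2: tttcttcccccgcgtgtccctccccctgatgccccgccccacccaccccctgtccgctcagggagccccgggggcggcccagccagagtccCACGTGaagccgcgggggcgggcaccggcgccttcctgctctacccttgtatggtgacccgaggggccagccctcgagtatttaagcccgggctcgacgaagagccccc
Dusp6: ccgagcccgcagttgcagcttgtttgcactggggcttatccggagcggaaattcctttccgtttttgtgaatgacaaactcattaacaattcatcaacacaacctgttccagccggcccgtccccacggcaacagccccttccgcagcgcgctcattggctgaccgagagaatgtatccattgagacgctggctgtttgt
Dusp10: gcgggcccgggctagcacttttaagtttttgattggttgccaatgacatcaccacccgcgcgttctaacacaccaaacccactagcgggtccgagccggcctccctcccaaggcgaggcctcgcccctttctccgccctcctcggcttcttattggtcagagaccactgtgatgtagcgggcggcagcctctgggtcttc

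These letters were searched on both strands, and were chosen after the sequences had been seen. In the Dusp1 window TGACGTCA begins at position -143 from the gene start, a separate TGACG at -191 and CACGTG at -126, while the Dusp2 window holds CACGTG at -109. The Dusp6 and Dusp10 windows hold none of these motifs. Of the 4 windows TGACGTCA and TGACG, which lies within it, were thus found in 1 and CACGTG in 2, against 1.47%, 15.7% and 5.26% of 32851 mouse windows of the same length. The AP-1 motif TGACTCA and the ETS motif CCGGAAG were found in 0 of the 4, against 3.66% and 6.29% of all windows, GGGCGG in 3 and CCAAT in 2, against 31% and 29.3%. Dusp4 and Dusp9 were not matched. For Dusp7, Dusp8, Dusp14 and Dusp16 the matched RefSeq window does not end at the annotated gene start but lies inside the gene or across that start, so they are neither printed nor counted. A match describes these letters only.

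The 4 arrays did not pair by label, and this bears on every value of the Dusp genes. Across 45037 probe sets, which cannot be taken as independent, MEKi 1 and vehicle 2 had a Pearson's r of 0.992 and MEKi 2 and vehicle 1 one of 0.978, but the MEKi arrays had one of 0.927 and the vehicle arrays one of 0.959. The 10 B cell markers measured of 11 listed had a median log2 expression of 9.73 in MEKi 1 and 4.18 in MEKi 2, against 4.17 in vehicle 1 and 9.50 in vehicle 2. The 11 T cell markers measured of 12 had medians of 9.88 in MEKi 1 and 5.10 in MEKi 2, against 6.01 in vehicle 1 and 9.88 in vehicle 2. Lymphocyte transcripts were thus abundant in 1 array of each label, whereas the 8 reference genes measured of 10 kept medians between 12.14 and 12.37 in all 4 arrays. Epithelial markers were present, with Krt8, a keratin of simple epithelia, at 10.54 in MEKi 1 and 12.11 in MEKi 2, against 12.92 in vehicle 1 and 11.75 in vehicle 2. Esr1, the estrogen receptor, read 3.48 and 4.32 in the MEKi arrays, against 3.96 and 4.09 in the vehicle arrays. These values were close to the lower quartile of an array, which was between 3.85 and 3.88. The other hormone and HER2 receptors listed were above that quartile in all 4 arrays. Pgr, the progesterone receptor, read 5.68 and 4.07 in the MEKi arrays, against 6.65 and 6.12 in the vehicle arrays. Erbb2, which encodes HER2, was lowest in MEKi 1 (5.85) and highest in MEKi 2. The median of the 19 ERK output genes, given below, was lowest in MEKi 1 and highest in MEKi 2. Gene by gene, MEKi 1 was the lowest array for 15 and MEKi 2 the highest for 13, against 30.0% and 34.8% of all genes. Vehicle 1 was the highest for 5, against 20.1%. Whether the labels of 2 arrays were exchanged was not tested, and a difference by label is a difference between treatments only if the labels hold. No label was changed. Each array is named by its label, every value is given per array, and the difference by label is given with and without each array. In bulk RNA, fewer cells of a type and less RNA per cell cannot be told apart.

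Dusp6, which encodes the ERK phosphatase MKP3 and is a feedback target of ERK, differed more between arrays of 1 label than between the labels. It read 9.59 in MEKi 1 and 12.30 in MEKi 2, against 12.02 in vehicle 1 and 10.96 in vehicle 2 (log2 expression after RMA, as for all values below, where 1 unit is a 2-fold change). The lowest and the highest array both carry the MEKi label, with the vehicle arrays in between. The difference by label was -0.54 (SE 1.07, limma, adjusted p = 1 by the Benjamini-Hochberg method over all probe sets, n = 2 each), and it ran from -1.89 to 0.81 as each array was left out, turning positive without MEKi 1. Set against single arrays, MEKi 1 lay 2.42 log2 units below vehicle 1 (difference -2.42) and 1.36 below vehicle 2 (-1.36), whereas MEKi 2 exceeded vehicle 1 by 0.28 and vehicle 2 by 1.34. The 4 values of Dusp6 spanned 2.71 log2 units, a span reached by 2.92% of all probe sets.

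Dusp7, a second cytoplasmic ERK phosphatase, followed a similar course on 3 probe sets. Its brightest, 1427416_PM_x_at, whose suffix marks probes that can also match other transcripts, read 7.20 in MEKi 1 and 8.08 in MEKi 2, against 8.35 in vehicle 1 and 7.64 in vehicle 2. MEKi 1 was the lowest array on all 3 probe sets. On 1452097_PM_a_at the values were 7.03 in MEKi 1 and 8.45 in MEKi 2, against 8.05 in vehicle 1 and 7.28 in vehicle 2, and on 1460393_PM_a_at they were 5.78 and 6.96, against 7.26 and 6.52. MEKi 2 was thus above vehicle 1 on 1 probe set and below it on the other 2. By label the brightest probe set differed by -0.36 (SE 0.44), between -0.79 and 0.08 with 1 array left out.

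Dusp9, the X-linked member of the ERK-selective group, was dim. The probe set 1433845_PM_x_at read 4.55 in MEKi 1 and 5.03 in MEKi 2, against 4.88 in vehicle 1 and 4.27 in vehicle 2, a difference by label of 0.22 (SE 0.33, between -0.09 and 0.52 with 1 array left out). Its other probe sets went in opposite directions by label. On 1433844_PM_a_at both arrays labelled MEKi were above both labelled vehicle (4.43 and 4.58 against 4.42 and 4.04), and on 1454737_PM_at both were below (4.02 and 4.50 against 4.84 and 4.62). All of these values lay between 4.02 and 5.03, where the medians of the arrays were between 4.98 and 5.14.

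Among the inducible nuclear phosphatases, Dusp4 resembled Dusp6 and Dusp2 ran the opposite way. Dusp4, which acts on ERK and JNK, read 7.32 in MEKi 1 and 9.30 in MEKi 2, against 8.56 in vehicle 1 and 8.13 in vehicle 2. The MEKi arrays again enclosed the vehicle arrays, and the difference by label was -0.03 (SE 0.76, between -1.02 and 0.96 with 1 array left out). MEKi 1 differed from vehicle 1 by -1.23 and from vehicle 2 by -0.81, whereas MEKi 2 exceeded them by 0.75 and 1.17.

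Dusp2, first described in activated lymphocytes, read 9.47 in MEKi 1 and 5.44 in MEKi 2, against 6.44 in vehicle 1 and 9.56 in vehicle 2. It was high in the 2 arrays in which B and T cell markers were high, and low in the other 2. Its span of 4.13 log2 units was the widest of the Dusp genes and was reached by 0.748% of all probe sets. The difference by label was -0.55 (SE 1.87), and between -2.56 and 1.47 with 1 array left out. MEKi 1 exceeded vehicle 1 by 3.03, and MEKi 2 lay below vehicle 2 with a difference of -4.13, while MEKi 1 and vehicle 2 differed by -0.09. The part of lymphocyte content in these values was not tested.

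Dusp1, an early response gene that is also induced by glucocorticoids and by stress, spanned 0.91 log2 units. It read 9.67 in MEKi 1 and 10.58 in MEKi 2, against 10.17 in vehicle 1 and 9.80 in vehicle 2, so that the labels overlapped (difference 0.14, SE 0.39, between -0.31 and 0.60 with 1 array left out). Of the 6 glucocorticoid-induced genes listed, Fkbp5, a co-chaperone of the glucocorticoid receptor, read 9.02 in MEKi 1 and 11.03 in MEKi 2, against 10.32 in vehicle 1 and 9.55 in vehicle 2. Tsc22d3, which encodes the leucine zipper protein GILZ, read 10.87 in MEKi 1 and 9.33 in MEKi 2, against 10.11 in vehicle 1 and 10.90 in vehicle 2. Klf9, a zinc finger factor, read 8.87 in MEKi 1 and 10.59 in MEKi 2, against 10.64 in vehicle 1 and 9.62 in vehicle 2, and the clock gene Per1 read 8.13 and 8.60, against 8.32 and 8.4. MEKi 2, the highest array for Dusp1, was the highest for 3 of the 6 genes, and for 34.8% of all genes with a symbol.

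**Figure D1:**
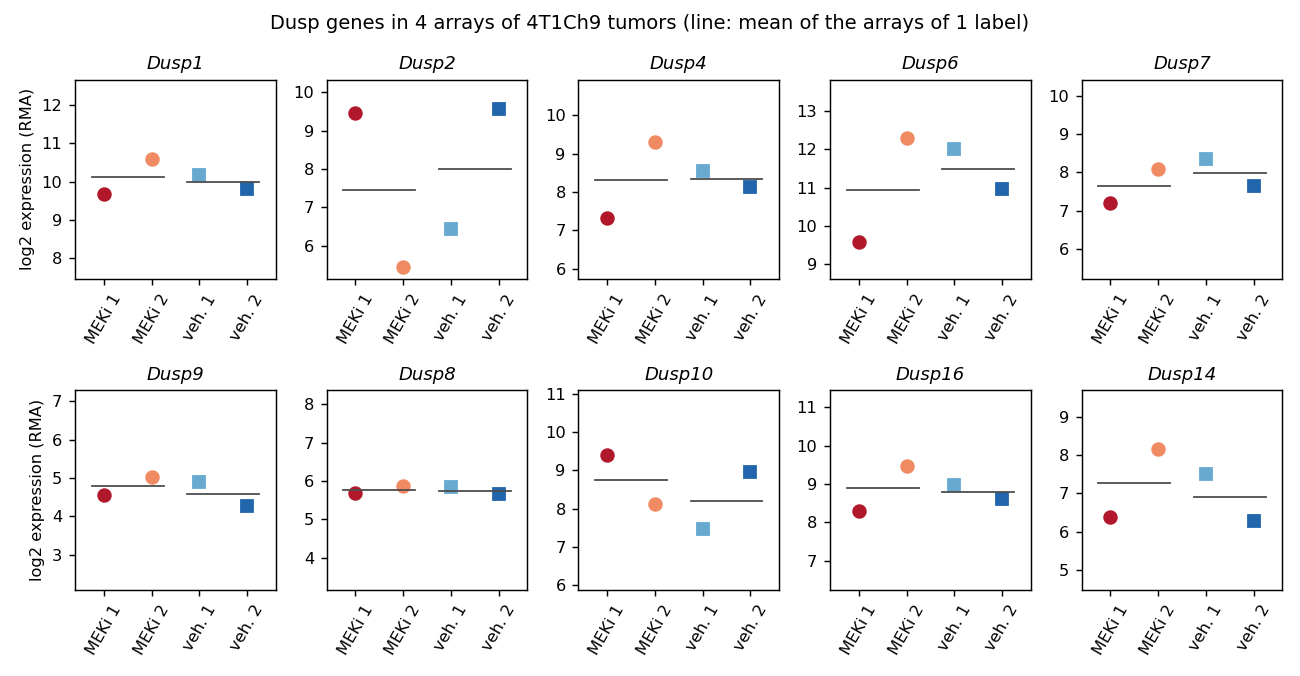
Log2 expression (RMA, vertical axis) of the brightest probe set of each Dusp gene in the 4 arrays, named by their labels (veh., vehicle). Circles are MEKi arrays, squares vehicle arrays, and lines the mean of the 2 arrays of a label. Every panel spans the same number of log2 units. Dusp6 lies at 9.59 and 12.30 in the MEKi arrays, against 12.02 and 10.96 in the vehicle arrays, and Dusp2 shows the opposite course.

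Of the phosphatases that prefer JNK and p38, Dusp10 was, like Dusp2, higher in MEKi 1 and vehicle 2 than in the other 2 arrays. Its bright probe set 1417164_PM_at read 9.39 in MEKi 1 and 8.11 in MEKi 2, against 7.47 in vehicle 1 and 8.95 in vehicle 2. The 2 arrays with many lymphocyte transcripts were again the highest, but here vehicle 1 and not MEKi 2 was the lowest. The difference by label was 0.54 (SE 0.73), between -0.20 and 1.28 with 1 array left out. MEKi 1 exceeded vehicle 1 by 1.92 and vehicle 2 by 0.44, and MEKi 2 exceeded vehicle 1 by 0.64 but differed from vehicle 2 by -0.84. The other probe set, 1417163_PM_at, read between 3.69 and 4.09, at or under the lower quartile in 3 of the 4 arrays, and carries no direction.

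Dusp16, which encodes a JNK phosphatase, read 8.29 in MEKi 1 and 9.48 in MEKi 2, against 8.98 in vehicle 1 and 8.61 in vehicle 2 on 1418401_PM_a_at (difference 0.09, SE 0.48, between -0.51 and 0.68 with 1 array left out). As for Dusp4 and Dusp6, the MEKi arrays were the lowest and the highest. On the dim probe set 1440615_PM_at both MEKi arrays (4.43 and 4.45) were above both vehicle arrays (4.28 and 4.29), by 0.14 to 0.17 log2 units.

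Dusp8 hardly varied on its brightest probe set, with 5.68 in MEKi 1 and 5.88 in MEKi 2, against 5.85 in vehicle 1 and 5.65 in vehicle 2 (difference 0.03, SE 0.19, between -0.07 and 0.12 with 1 array left out). On 1447346_PM_s_at both MEKi arrays (5.51 and 5.66) were above both vehicle arrays (5.24 and 5.34), a difference of 0.30 (SE 0.17, limma, adjusted p = 1). On 1418714_PM_at the values were 3.77 and 4.77 in the MEKi arrays, against 4.31 and 3.87 in the vehicle arrays, and the lowest of them was under the lower quartile of its array. The 3 probe sets did not share an order of the arrays.

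Dusp14, the small member, read 6.39 in MEKi 1 and 8.15 in MEKi 2, against 7.51 in vehicle 1 and 6.27 in vehicle 2. It was high in MEKi 2 and vehicle 1 and low in the other 2 arrays, with a difference by label of 0.38 (SE 0.80, between -0.50 and 1.26 with 1 array left out). MEKi 2 exceeded vehicle 2 by 1.88, the largest positive difference of any Dusp gene in that pair of arrays, whereas MEKi 1 exceeded vehicle 2 by only 0.12.

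**Figure D2:**
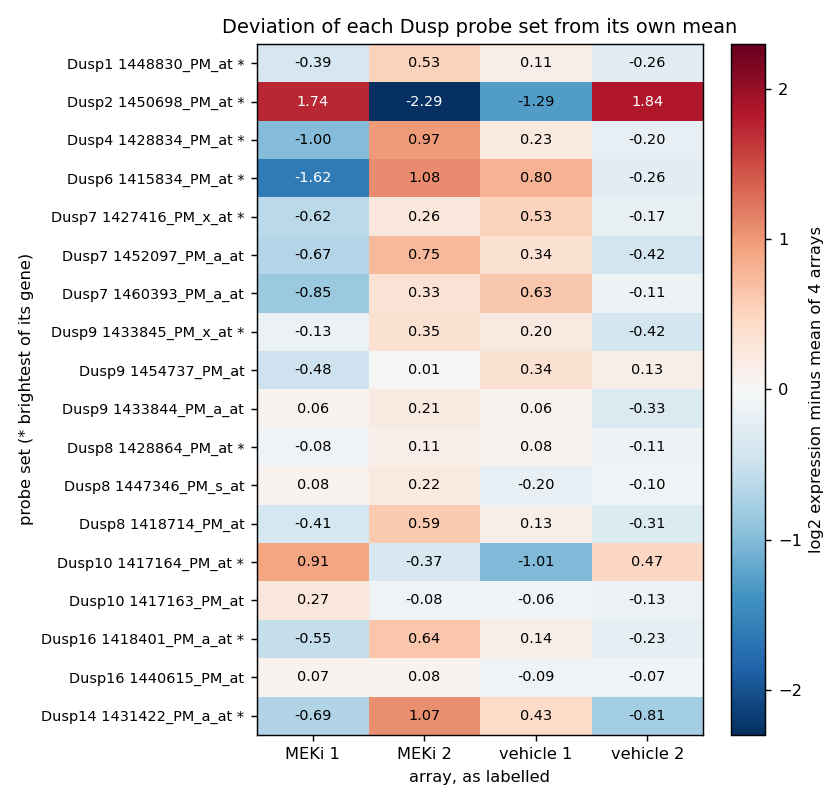
Log2 expression of each of the 18 Dusp probe sets (vertical axis) in each array (horizontal axis), minus the mean of that probe set over the 4 arrays. Red is above and blue below the mean, and an asterisk marks the brightest probe set of a gene. MEKi 1 lies 1.62 below the mean for Dusp6, and Dusp2 and the brightest probe set of Dusp10 are above their means in MEKi 1 and vehicle 2.

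By label, MEKi and vehicle were compared with limma over all 45037 probe sets other than controls, two-sided, and a probe set was called where p was under 0.05 and adjusted p under 0.1 with more than a 1.5-fold change. Of the 18 Dusp probe sets 0 were called higher and 0 lower, against 0% of all probe sets, and 0 had an unadjusted p under 0.05, against 0.901% (406) of all probe sets. Limma with an intensity trend and limma without moderated variances also called 0 Dusp probe sets. The lowest adjusted p over the whole array was 1. An exact permutation test of 2 arrays against 2 cannot give a two-sided p below 0.333.

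Both MEKi arrays were above both vehicle arrays for 3 of the 18 Dusp probe sets, against 12.1% of all probe sets, and below them for 1, against 9.86%. These 4 were further probe sets of Dusp8, Dusp9 and Dusp16, and the brightest probe set overlapped between the labels in all 10 genes. Of all genes with a symbol, 11% had both MEKi arrays above both vehicle arrays and 10.2% had both below. By label, 6 of the 10 genes were higher and 4 lower, with a median difference of 0.06, beside 0.01 over all genes with a symbol. Centring on reference genes turned the sign of Dusp8, and centring on epithelial markers, which adds 1.33 log2 units to every probe set alike, those of Dusp2, Dusp4, Dusp6 and Dusp7. The median over the Dusp genes ran from -0.41 to 0.53 with 1 array left out, and all 10 genes changed sign under at least 1 of these 4 omissions. A shift of the family by MEKi was not detectable with these arrays as labelled, which does not show that there was none.

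Set against single arrays, with 1 array a side and no test, the median of the family lay below the vehicle arrays in MEKi 1 and above them in MEKi 2 on the deposited scale, while centring each array on the epithelial markers, which adds 1.33 log2 units to every difference by label, placed it above them in all 4 pairs (medians of 0.70 to 2.14). Against vehicle 1, MEKi 1 had 8 of 10 genes lower and 2 higher, where 50.6% of all genes with a symbol were higher, and the median difference was -0.60. Of the members 4 (Dusp4, Dusp6, Dusp7 and Dusp14) were over 1 log2 unit lower and 2 (Dusp2 and Dusp10) over 1 higher, against 7.02% and 5.61% of all probe sets and 8.74% and 6.67% of all genes. MEKi 1 was close to vehicle 2, with 6 genes lower and 4 higher, where 45.0% of all genes were higher. The median was -0.11, with only Dusp6 over 1 log2 unit lower, against 0.548% of probe sets and 0.831% of genes, and 0 over 1 higher, against 0.386% and 0.287%.

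MEKi 2 had 8 of 10 genes higher than vehicle 1, where 55.9% of all genes were higher, with a median of 0.35. No member was over 1 log2 unit higher or lower, against 1.59% and 3.52% of probe sets and 2.26% and 4.34% of genes. Dusp2 came closest to that limit in this pair (-0.998). Against vehicle 2, MEKi 2 again had 8 genes higher, where 51.7% of all genes were higher, with a median of 0.78. Here 3 (Dusp4, Dusp6 and Dusp14) were over 1 log2 unit higher and 1 (Dusp2) over 1 lower, against 6.9% and 7.27% of probe sets and 8.25% and 9.15% of genes. The 4 comparisons share arrays and are not independent of each other.

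Differences of similar size were found within a label. MEKi 1 minus MEKi 2 had a median of -0.90 over the 10 genes, with 4 genes over 1 log2 unit lower (Dusp4, Dusp6, Dusp14 and Dusp16) and 2 over 1 higher (Dusp2 and Dusp10). The shares over the whole array were 8.07% and 8.57% of probe sets and 10.3% and 9.55% of genes. Vehicle 1 minus vehicle 2 had a median of 0.40, with 2 genes over 1 log2 unit higher (Dusp6 and Dusp14) and 2 over 1 lower (Dusp2 and Dusp10). Here the shares were 5.39% and 4.56% of probe sets and 5.81% and 5.84% of genes. MEKi 2 was the highest array for 7 of the 10 genes, and for 34.8% of all genes with a symbol. MEKi 1 was the lowest for 5 (Dusp1, Dusp4, Dusp6, Dusp7 and Dusp16), and for 30.0% of all genes.

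**Figure D3:**
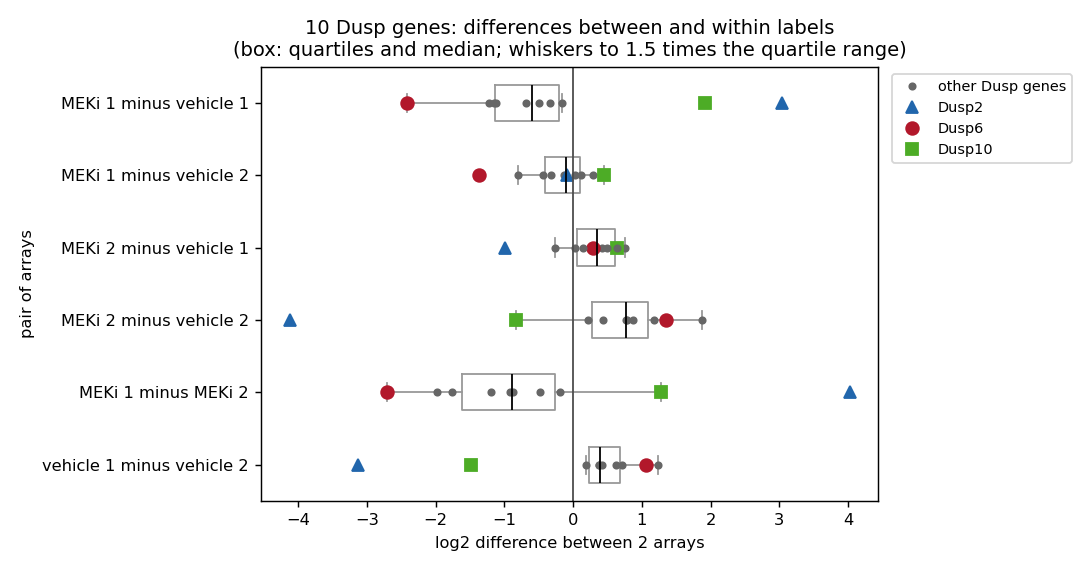
Log2 differences (horizontal axis) of the 10 Dusp genes between single arrays, for the 4 pairs of a MEKi and a vehicle array and for the 2 pairs within a label (vertical axis). Points are genes, boxes their quartiles and median, and whiskers reach to the last gene within 1.5 times the quartile range. The medians are -0.60 and -0.11 for MEKi 1 and 0.35 and 0.78 for MEKi 2 against vehicle 1 and vehicle 2 on the deposited scale (all above 0 when arrays were centred on epithelial markers), and -0.90 between the MEKi arrays.

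The members were also compared with each other, by the root-mean-square difference of their deviations from their own mean over the 4 arrays. Dusp1 and Dusp16 were the most alike (0.10 log2 units), followed by Dusp1 and Dusp9 (0.18). Dusp2 and Dusp6 were the furthest apart (2.81). By the same measure, the 5 genes with a symbol nearest to Dusp6 were Gja1, Rapgef3, Spred3, Tmem79 and Trib3, between 0.13 and 0.15. Of these, Spred3, a Spred family inhibitor of Ras to ERK signaling, read 4.94 in MEKi 1 and 7.68 in MEKi 2, against 7.43 in vehicle 1 and 6.02 in vehicle 2, and Gja1, a connexin of gap junctions, read 10.04 and 12.39, against 12.23 and 11.13. The 5 nearest to Dusp10 were Pglyrp1, Spn, Cacna2d4, Tspyl4 and Rab30, between 0.03 and 0.08. Spn, which encodes the leukocyte surface protein sialophorin, read 7.93 in MEKi 1 and 6.60 in MEKi 2, against 6.12 in vehicle 1 and 7.48 in vehicle 2. With 4 arrays, likeness of this kind is a description only.

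Genes of ERK output and feedback other than the Dusp genes had medians in the same order of arrays as Dusp6 on the deposited scale. The 19 listed genes, all measured, had medians of 6.67 in MEKi 1 and 9.65 in MEKi 2, against 9.36 in vehicle 1 and 8.31 in vehicle 2, with a median difference of -0.10 by label. Against vehicle 1, MEKi 1 was lower for 17 of the 19, and against vehicle 2 for 16, whereas MEKi 2 was higher for 14 and 18. Etv5, an ETS factor induced by ERK, read 6.53 in MEKi 1 and 9.65 in MEKi 2, against 9.36 in vehicle 1 and 8.31 in vehicle 2. Spry1, a Sprouty protein that dampens growth factor signaling, read 7.89 in MEKi 1 and 11.68 in MEKi 2, against 10.13 in vehicle 1 and 8.41 in vehicle 2. Fosl1, which encodes the AP-1 subunit FRA1, read 4.89 in MEKi 1 and 8.08 in MEKi 2, against 8.23 in vehicle 1 and 6.56 in vehicle 2. The array labelled MEKi 1 was thus the lowest for each of these 3 genes, and the array labelled MEKi 2 was not lower than both vehicle arrays for any of them.

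The medians of the 15 immediate early genes measured of 16 had no such order. They were 8.53 in MEKi 1 and 8.52 in MEKi 2, against 8.67 in vehicle 1 and 8.76 in vehicle 2. Fos did have the array order of Dusp6, with 7.74 in MEKi 1 and 9.23 in MEKi 2, against 8.72 in vehicle 1 and 7.92 in vehicle 2. Egr1 read 9.02 in MEKi 1 and 9.75 in MEKi 2, against 9.22 in vehicle 1 and 10.44 in vehicle 2. Klf4, a zinc finger factor of epithelia, read 8.16 and 8.52 in the MEKi arrays, against 9.90 and 8.75 in the vehicle arrays, a difference of -0.98 (SE 0.47) that was not called. Btg2, an antiproliferative gene, read 10.70 in MEKi 1 and 7.65 in MEKi 2, against 7.87 in vehicle 1 and 10.71 in vehicle 2, and so was arranged like Dusp2.

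The kinases on which the phosphatases act, and the kinases above them, had close medians in all arrays. The 14 MAP kinase and MAP kinase kinase genes measured of 16 had medians between 8.75 and 9.08, and a median difference of -0.01 by label. Mapk13, a p38 kinase of epithelia, read 6.37 in MEKi 1 and 7.10 in MEKi 2, against 8.43 in vehicle 1 and 7.10 in vehicle 2 (difference -1.03, SE 0.58). Mapk12, another p38 kinase, read 7.62 in MEKi 1 and 8.95 in MEKi 2, against 8.84 in vehicle 1 and 8.0 in vehicle 2. The 6 other phosphatases of MAP kinases measured of 8 had a median difference of -0.0041 by label, and the largest span among those with values well above the floor was that of Ppm1d, a p53-induced phosphatase, with 8.08 and 7.20 in the MEKi arrays, against 7.41 and 8.07 in the vehicle arrays.

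Further dual-specificity phosphatases, most of which are not MAP kinase phosphatases, were measured for 14 of 15 listed genes and had a median difference of -0.03 by label. Dusp27 read 4.43 in MEKi 1 and 7.94 in MEKi 2, against 6.01 in vehicle 1 and 4.18 in vehicle 2. Dusp18, a mitochondrial phosphatase, read 4.99 in MEKi 1 and 7.30 in MEKi 2, against 7.01 in vehicle 1 and 5.46 in vehicle 2. Both were high in MEKi 2 and vehicle 1. Dusp22, a phosphatase of JNK signaling and of T cell receptor signaling, went the other way, with 7.82 in MEKi 1 and 7.10 in MEKi 2, against 7.43 in vehicle 1 and 7.93 in vehicle 2. In the lists of ERK output, immediate early, glucocorticoid-induced, MAP kinase and other phosphatase genes, limma called 0 genes by label, and 0 had an unadjusted p under 0.05.

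**Figure D4:**
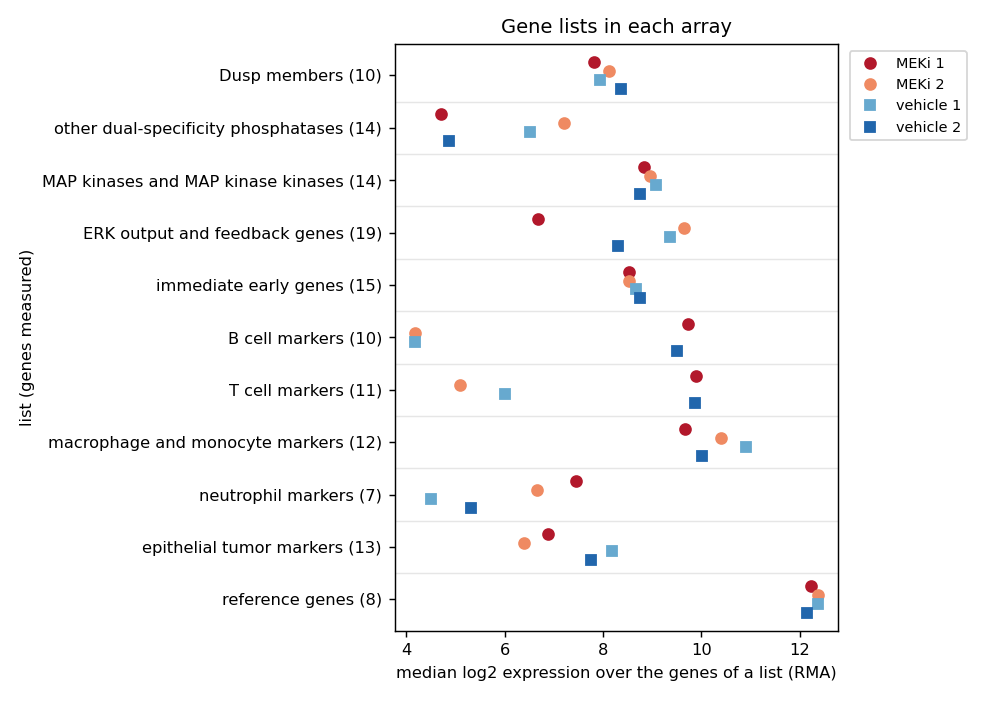
Median log2 expression (RMA, horizontal axis) of the Dusp genes and of 10 other gene lists (vertical axis, number of genes measured in parentheses), 1 point per array. Circles are MEKi arrays and squares vehicle arrays. ERK output genes lie at 6.67 in MEKi 1 and 9.65 in MEKi 2, against 9.36 in vehicle 1 and 8.31 in vehicle 2, and B and T cell markers are high in MEKi 1 and vehicle 2.

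Markers of other cell types also differed between the arrays. The 12 macrophage and monocyte markers had medians of 9.66 in MEKi 1 and 10.39 in MEKi 2, against 10.92 in vehicle 1 and 10.01 in vehicle 2. MEKi 1 was below both vehicle arrays for all 12, where 50.6% of all genes were higher than in vehicle 1 and 45.0% than in vehicle 2. The 7 neutrophil markers measured of 9 had medians of 7.46 and 6.66 in the MEKi arrays, against 4.50 and 5.32 in the vehicle arrays, and both MEKi arrays were above both vehicle arrays for 6 of them, against 11% of all genes with a symbol. The 13 epithelial tumor markers had medians of 6.89 and 6.39 in the MEKi arrays, against 8.18 and 7.75 in the vehicle arrays, and both MEKi arrays were below both vehicle arrays for 8, against 10.2% of all genes. MEKi 1 was the lowest array for 6 of the 13 and MEKi 2 for 7. Among them Krt19, a simple epithelial keratin, read 8.91 in MEKi 1 and 4.52 in MEKi 2, against 9.36 and 9.42 in the vehicle arrays. Spint1 went the other way between the MEKi arrays, with 6.89 in MEKi 1 and 9.75 in MEKi 2, against 9.43 and 7.75 in the vehicle arrays. The 9 fibroblast markers had medians of 9.26 and 8.49 in the MEKi arrays, against 10.09 and 9.98 in the vehicle arrays. Both MEKi arrays were below both vehicle arrays for 4 of them and above for 1, against 10.2% and 11% of all genes. MEKi 2 was the lowest array for 6 and the highest for 3, against 27.2% and 34.8% of all genes. The part of cell composition in the Dusp values was not tested. Where composition differs by label, it cannot be told apart from treatment with 2 arrays a label. Lymphocyte markers, given above, were high in 1 array of each label.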

How the data were processed

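Per the labels, total RNA of 4T1Ch9 tumors was hybridised to Affymetrix MG-430PM arrays, 2 for MEKi and 2 for vehicle. The values deposited by the authors are log2 expression per probe set. Pre-processing was by RMA, with background correction and with quantile normalization over the 4 arrays in AFFY. Versions of RMA and AFFY are not given in the sources used here, nor is a filter or pooling of replicates. Quantile normalization brings the arrays close to 1 distribution, so a change shared by most genes would largely not appear. The medians of the deposited values were between 4.98 (MEKi 2) and 5.14 (MEKi 1). The number of arrays limits the precision. The columns of all 4 arrays were used.

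Of 45141 probe sets, 104 controls were left out. The platform annotation gives a single symbol for 28898 of the 45037 that were tested, several for 551 (left unnamed) and none used here for 15588. Some genes of the lists were not used here. Groups came from the labels. Fits used lmFit and eBayes of limma 3.58.1 in R 4.3.3, and p-values were Benjamini-Hochberg adjusted over all tested probe sets. The fit was run on simulated data, and the count of added changes it called was checked only where the simulated spread was small. That count at the spread of these arrays is not reported here. Genes named are every Dusp gene and probe set, any called gene, the 5 genes nearest to Dusp6 and to Dusp10, and some genes of other lists. The last were taken from the genes of a list with the largest range over the 4 arrays (up to 4). Not all genes that met this rule are given. Krt8 was added as a marker of the tissue after its values were seen. The members and the lists were chosen with earlier results of these data known. A value at or under the 25th percentile of its array was treated as near the floor. As alternatives, the fits were run with adjusted p under 0.05, with a trend on intensity, with unmoderated variances, without the dimmest probe sets (0.25 of all), after centring on reference genes or on epithelial markers, with the replicate number as a block, without each array in turn, with 1 value a gene and with the probe sets of a gene averaged. Tables and figures were made in Python 3.11.15 (pandas 2.3.3, numpy 2.4.6, matplotlib 3.10.9).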

Additional observations from a re-analysis of the deposited data

How the results depend on the processing

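Limma called 0 probe sets and 0 Dusp probe sets by label under each alternative except 1, which was the centring of each array on the epithelial markers. That centring adds 1.33 log2 units to the MEKi minus vehicle difference of every probe set, so that 25823 probe sets and 12 Dusp probe sets passed the thresholds. The median difference of the Dusp genes became 1.39, which is 0.06 above that common shift. Between single arrays the medians became 0.70 (MEKi 1 minus vehicle 1), 0.76 (MEKi 1 minus vehicle 2), 2.14 (MEKi 2 minus vehicle 1) and 2.14 (MEKi 2 minus vehicle 2). The sign turned for Dusp2 (0.78), Dusp4 (1.30), Dusp6 (0.79) and Dusp7 (0.97), all of them below the common shift. Centring on reference genes (a shift of -0.04) turned the sign of Dusp8 (-0.017) and gave a median of 0.01. As each array was left out, 0 probe sets were called, the median over the Dusp genes ran from -0.41 to 0.53, and the genes ranged from -0.31 to 0.60 (Dusp1), -2.56 to 1.47 (Dusp2), -1.02 to 0.96 (Dusp4), -1.89 to 0.81 (Dusp6), -0.79 to 0.084 (Dusp7), -0.068 to 0.12 (Dusp8), -0.092 to 0.52 (Dusp9), -0.20 to 1.28 (Dusp10), -0.50 to 1.26 (Dusp14) and -0.51 to 0.68 (Dusp16). A lone array was assumed to vary like those of the other label. With the replicate number as a block, 0 probe sets were called, and the deviations of same-numbered arrays had a correlation of -0.764 across probe sets. With 2 arrays a label, this value cannot exclude a pairing by number. With the pairing crossed, an alternative chosen after seeing the data, 0 probe sets and 0 Dusp probe sets were called. All other results kept their direction and their side of the threshold in the alternatives run. The number of arrays limits all of these values, and 1 probe set of Dusp10 was at or under the lower quartile in 3 arrays.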
